A study of Mus musculus with 32 samples.

Results

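The 10 genes described here encode proteins of granulocyte granules and the adhesion receptor chain Itgam, and they were read in 4 lines of the murine pro-B cell line Ba/F3. The genes are Mpo, Ctsg, Elane, Prtn3, Lcn2, Ltf, Lyz2, Ngp, Camp and Itgam. They were chosen by name, and 10 of 10 had 1 probe set assigned to their symbol alone, out of 23410 probe sets with a symbol that were tested. Another 3 probe sets name Itgam together with a second gene and were not used. The line Ba/F3-gp130, called the parental line here, carries human gp130, the signal-transducing receptor of IL-6, and the other lines were made from it. Ba/F3-IL-12Rβ1-IL-23R, the natural-receptor line, additionally carries both murine chains of the natural IL-23 receptor. Ba/F3-SyCyR(IL-23/2A), the paired SyCyR line, carries synthetic cytokine receptors in which nanobodies for mCherry and GFP replace the outer parts of IL-23R and IL-12Rβ1, and Ba/F3-SyCyR(IL-23R), the single SyCyR line, carries a GFP nanobody on IL-23R alone. All lines therefore share human gp130. The labels of all arrays give growth with Hyper-IL-6, a fusion of IL-6 and its soluble receptor, while the study's methods also describe its removal from synthetic-receptor lines, which were then selected to grow on GFP:mCherry, so earlier exposure to cytokines may differ between lines. The labels of all arrays likewise give medium without serum for 3 h and then 1 h with ligand at 100 ng/ml, and the methods add a control supernatant. Neither says what the arrays of the parental line received.

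There were 8 arrays per line and 32 in all, numbered 13 to 20 in their titles. Which arrays were stimulated cannot be read from the titles, so the 8 arrays of a line were analysed jointly, and odd and even numbers were compared only as numbers. Array medians lay between 6.94 and 7.18 on the log2 scale, arrays of 1 line correlated at 0.991 or higher, and no array was identical to another. Il23r and Il12rb1 had medians of 13.21 and 12.52 in the natural-receptor line and at most 6.60 and 8.25 in the other lines. Il23r was 6.30 in the paired SyCyR line and 6.32 in the single SyCyR line, although both carry the inner part of IL-23R. These values therefore mark the natural-receptor line and do not show the synthetic receptors. Of 10 measured pro-B cell markers, 3 had a median at or above 7.04, the median over the means of all probe sets, in every line. These were Cd79a, Cd79b and Igll1, whereas Pax5 (6.50 to 6.54), Ebf1 (5.72 to 5.80), Rag1 (5.87 to 5.92) and Il7r (4.70 to 4.79) stayed under it. The study's methods call the arrays of a stimulation state independent biological replicates but describe no arrays of the parental line, so for that line p-values reflect only how far these samples spread, which may be technical. Each receptor is represented by 1 line, and the lines were selected and cultured separately, so receptor, selection and culture cannot be told apart in any difference between lines.

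Neutrophil granules are filled in order while the cell matures. Primary granules are made at the promyelocyte stage and hold myeloperoxidase (Mpo) and the serine proteases cathepsin G (Ctsg), neutrophil elastase (Elane) and proteinase 3 (Prtn3). Secondary and tertiary granules follow later and hold lipocalin 2 (Lcn2), lactoferrin (Ltf), neutrophilic granule protein (Ngp) and the cathelicidin Camp. Lysozyme (Lyz2) is stored in granules and is also made by macrophages. Itgam is the αM chain of the integrin Mac-1 and pairs with the β2 chain Itgb2. Factors of the C/EBP, PU.1, RUNX and MYB families are known regulators of granule genes in myeloid cells, and STAT3 carries signals of gp130 and of the IL-23 receptor.

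The genes lie on several chromosomes (GRCm38.p6). Prtn3 (chromosome 10, 79879667 to 79883174) and Elane (chromosome 10, 79886312 to 79888216) are neighbours with 3137 bases between them, and Lyz2 lies farther along chromosome 10 (117277541 to 117282272). Camp, Ngp and Ltf lie along chromosome 9, with 570351 and 596279 bases between them. Mpo lies on chromosome 11 (87793784 to 87804412), Ctsg on chromosome 14 (56099885 to 56102574), Lcn2 on chromosome 2 (32384637 to 32387739) and Itgam on chromosome 7 (128062640 to 128118491). Promoters of RefSeq, 250 bases before to 50 bases after the start of a gene, were at hand for 10 of 10 genes. They are shown for the 4 genes whose arrays spread most within a line, with capitals marking every match to one of 5 motifs on either strand (C/EBP as TTNNGNAA, PU.1 as GAGGAA, RUNX as TGTGGT, MYB as TAACNG, STAT as TTCNNNGAA).
Mpo (chr11:87793534-87793833, plus strand): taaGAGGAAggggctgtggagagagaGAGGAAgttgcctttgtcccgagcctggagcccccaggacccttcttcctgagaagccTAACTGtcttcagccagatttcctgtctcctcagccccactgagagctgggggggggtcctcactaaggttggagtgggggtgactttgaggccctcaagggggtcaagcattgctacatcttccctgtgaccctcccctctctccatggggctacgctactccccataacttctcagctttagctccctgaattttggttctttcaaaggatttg
Ctsg (chr14:56102525-56102824, minus strand): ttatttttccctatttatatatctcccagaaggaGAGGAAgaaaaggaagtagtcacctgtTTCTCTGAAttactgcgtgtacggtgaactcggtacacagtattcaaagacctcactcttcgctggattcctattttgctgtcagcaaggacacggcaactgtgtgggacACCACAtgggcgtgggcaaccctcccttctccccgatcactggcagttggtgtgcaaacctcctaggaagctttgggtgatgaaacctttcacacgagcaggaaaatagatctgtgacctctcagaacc
Lcn2 (chr2:32387690-32387989, minus strand): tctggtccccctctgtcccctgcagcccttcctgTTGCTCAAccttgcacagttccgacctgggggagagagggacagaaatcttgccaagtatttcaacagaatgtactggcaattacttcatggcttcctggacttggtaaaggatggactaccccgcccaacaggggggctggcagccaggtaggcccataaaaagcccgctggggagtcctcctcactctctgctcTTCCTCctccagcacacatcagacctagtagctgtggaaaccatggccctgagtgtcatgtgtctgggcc
Itgam (chr7:128062390-128062689, plus strand): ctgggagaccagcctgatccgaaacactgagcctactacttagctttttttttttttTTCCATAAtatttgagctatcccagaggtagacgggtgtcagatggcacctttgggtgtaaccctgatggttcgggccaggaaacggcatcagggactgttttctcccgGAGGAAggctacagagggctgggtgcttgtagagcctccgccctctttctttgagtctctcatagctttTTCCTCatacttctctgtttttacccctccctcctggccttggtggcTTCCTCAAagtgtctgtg
The PU.1 letters were present in 7 of 10 promoters, those of Mpo, Ctsg, Elane, Prtn3, Lcn2, Ltf and Itgam, and in 28.3% of all 32851 promoters of this length. The C/EBP letters were present in 5 of 10 (Lcn2, Ltf, Lyz2, Ngp and Itgam) and in 40.7% of all promoters. The RUNX letters were present in 3 of 10 (16.8% of all), the MYB letters in 2 of 10 (23.3%) and the STAT letters in 1 of 10, Ctsg (8.30%). In Itgam a C/EBP and a PU.1 match overlapped downstream of the start. A match describes the letters only.

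Of the 10 genes, Mpo, Ctsg, Lcn2, Lyz2 and Itgam were called between lines, and Elane, Prtn3, Ltf, Ngp and Camp were not called in any of the 6 comparisons. To be called, a difference needed an adjusted p (Benjamini-Hochberg, limma) under 0.05 and a size of at least 1.5-fold. Elane, Prtn3 and Ngp reached an adjusted p under 0.05 in some comparisons but stayed under 1.5-fold. The genes did not move as a block. Lcn2 was at the bottom of its scale in the natural-receptor line and at the top in the single SyCyR line, Mpo was lower in both of these lines than in the parental line, and signal for Itgam and Lyz2 rose in the single SyCyR line against every other line.

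**Figure D1:**
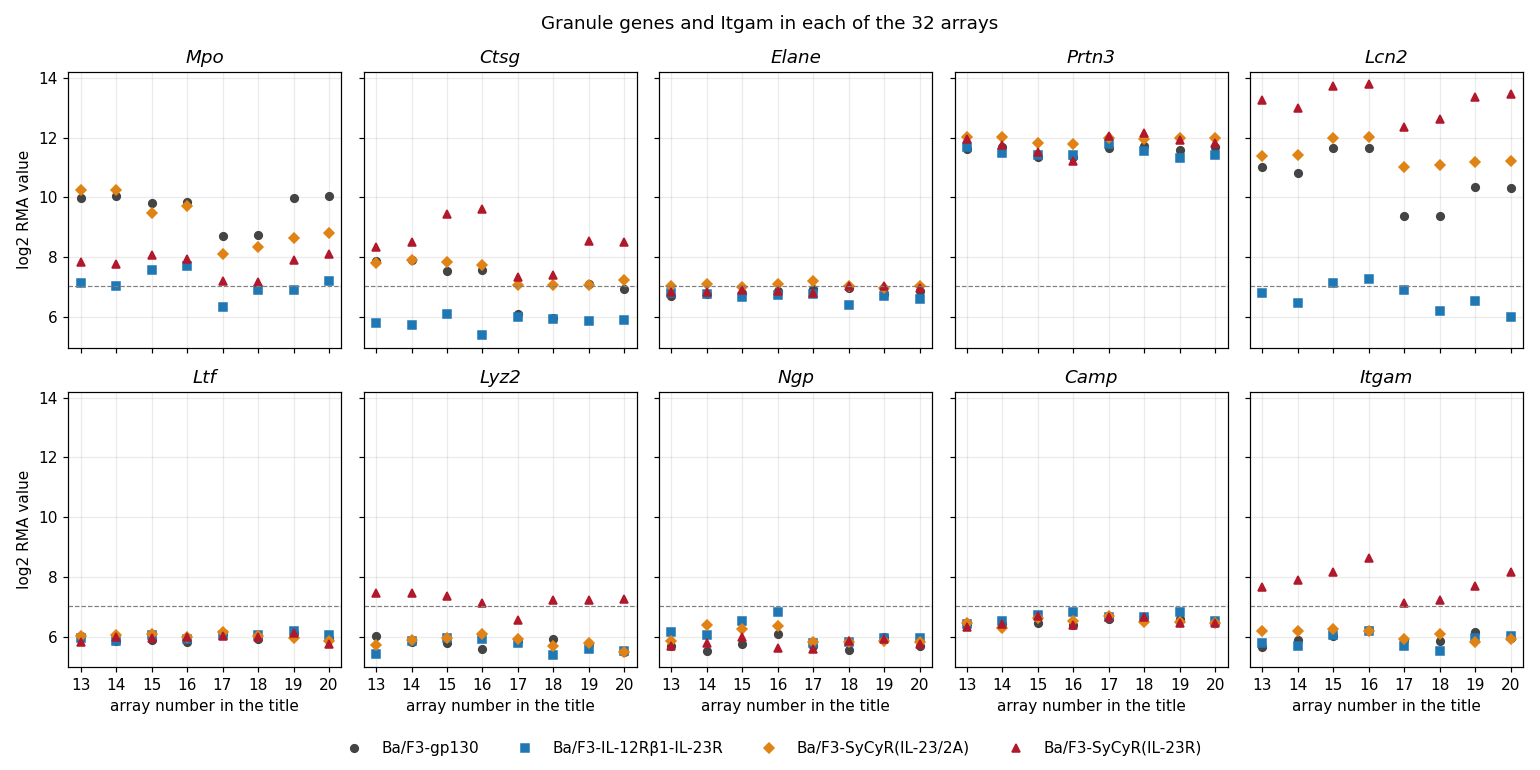
Log2 RMA value (vertical axis) of each gene in each array against the array number in its title (horizontal axis), with 1 point per array, colours and symbols for the 4 lines and a dashed line at 7.04, the median over the means of all probe sets. Lcn2 spans 5.998 to 13.78 over the 32 arrays, while the points of Ltf stay between 5.78 and 6.18.

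Among the primary granule genes, Mpo, whose enzyme forms hypochlorous acid, had its highest median in the parental line. It ranged from 8.72 to 10.05 (median 9.90, n = 8 arrays) in the parental line and from 8.10 to 10.26 (median 9.13, n = 8) in the paired SyCyR line. In the single SyCyR line it ranged from 7.19 to 8.12 (median 7.88) and in the natural-receptor line from 6.34 to 7.70 (median 7.09). The arrays of these last lines lay under all arrays of the parental line, and those of the natural-receptor line also under all of the paired SyCyR line. How many of all probe sets separate the arrays of different lines in this way was not counted. A lack of overlap is therefore only a description, here and for the genes below. Against the parental line, Mpo fell by 2.54 (SE 0.27, adjusted p = 2.68e-09) or 5.83-fold in the natural-receptor line. It fell by 1.89 (SE 0.27, adjusted p = 2.78e-06) or 3.71-fold in the single SyCyR line. Mpo was 2.09 higher in the paired SyCyR line than in the natural-receptor line (SE 0.27, adjusted p = 1.66e-07) or 4.26-fold. It was lower in the single SyCyR line than in the paired SyCyR line, with a difference of -1.44 (SE 0.27, adjusted p = 0.000317). The lines next to each other at both ends of this order were not told apart in the fit without a block. There the paired SyCyR line minus the parental line was -0.45 (SE 0.27, adjusted p = 0.379). The single SyCyR line minus the natural-receptor line was 0.65 (SE 0.27, adjusted p = 0.0786). With the title number as a block the latter difference passed (adjusted p = 0.00376), so whether it is called depends on the fit. Mpo lay under 7.04 in 4 arrays, all of them in the natural-receptor line, whose median of 7.09 was close to that value. Signal in those arrays was not shown to be above background, so the folds of Mpo against that line may be too small.

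Ctsg, the gene of cathepsin G, followed another order, with its highest values in the single SyCyR line. It ranged from 7.33 to 9.61 (median 8.51, n = 8) there, from 7.07 to 7.92 (median 7.49) in the paired SyCyR line, and from 5.97 to 7.92 (median 7.33) in the parental line. In the natural-receptor line it lay between 5.40 and 6.12 (median 5.89), under 7.04 in 8 of 8 arrays. There was no overlap between that line and either SyCyR line, whereas the lowest arrays of the parental line reached into its range. Against the parental line, Ctsg fell by 1.28 (SE 0.28, adjusted p = 0.000694) in the natural-receptor line, at least 2.43-fold. A fold is called a lower bound where the dimmer line has a median under 7.04, since signal there is not shown to be above background. The value 7.04 is a cut chosen here and not a measured background. Signal over 7.04 is not thereby shown to be above background either. Against that line Ctsg was 1.63 higher in the paired SyCyR line (adjusted p = 2.80e-05) and 2.61 higher in the single SyCyR line (adjusted p = 3.33e-09), at least 3.09-fold and 6.11-fold. Against the parental line it rose by 1.33 (SE 0.28, adjusted p = 0.000728) or 2.51-fold in the single SyCyR line, and its difference of 0.34 in the paired SyCyR line did not pass (adjusted p = 0.558). The difference of 0.98 between the SyCyR lines (SE 0.28, adjusted p = 0.0205) was lost when consecutive numbers were averaged to 4 values per line (adjusted p = 0.201) and without array 15 or 16 of the single SyCyR line (adjusted p = 0.0547 and 0.0623). Mpo and Ctsg thus moved in opposite directions in the single SyCyR line and in the same direction in the natural-receptor line, each against the parental line.

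The other primary granule proteases differed little between lines. Prtn3, which encodes proteinase 3, was above 7.04 in 32 of 32 arrays, with line medians from 11.46 in the natural-receptor line to 11.98 in the paired SyCyR line. The largest Prtn3 difference, 0.43 between these lines (SE 0.09, adjusted p = 0.000561), stayed under 1.5-fold at 1.34, and their arrays overlapped. The arrays of the parental line (11.35 to 11.71) lay under those of the paired SyCyR line (11.77 to 12.01), with a difference of 0.35 (adjusted p = 0.0134), also under 1.5-fold. Its neighbour Elane, which encodes neutrophil elastase, had line medians from 6.71 to 7.05 and lay under 7.04 in 26 of 32 arrays. Elane was 0.38 higher in the paired SyCyR line than in the natural-receptor line (SE 0.05, adjusted p = 3.84e-07), under 1.5-fold. The arrays of these lines did not overlap, and the share of all probe sets with such a separation was not counted.

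Lcn2, which encodes an iron-siderophore-binding protein, spanned the widest interval between lines of the 10 genes. It ranged from 12.34 to 13.78 (median 13.31, n = 8) in the single SyCyR line and from 11.02 to 12.02 (median 11.31) in the paired SyCyR line. In the parental line it ranged from 9.37 to 11.65 (median 10.57), and in the natural-receptor line from 5.998 to 7.26 (median 6.66). Every array of the single SyCyR line was above every array of the other lines, and every array of the natural-receptor line was below them. Only the parental line and the paired SyCyR line overlapped. Against the parental line, Lcn2 fell by 3.90 (SE 0.27, adjusted p = 1.28e-13), at least 14.9-fold, in the natural-receptor line and rose by 2.63 (SE 0.27, adjusted p = 6.75e-09), 6.18-fold, in the single SyCyR line. From the natural-receptor line to the single SyCyR line the difference was 6.53 (SE 0.27, adjusted p = 9.23e-20), at least 92.2-fold. Lcn2 was 4.75 higher in the paired SyCyR line than in the natural-receptor line (SE 0.27, adjusted p = 6.82e-16), at least 27.0-fold. The SyCyR lines differed by 1.77 (SE 0.27, adjusted p = 2.02e-05) or 3.42-fold. Lcn2 was 0.86 higher in the paired SyCyR line than in the parental line (SE 0.27, adjusted p = 0.0531), which did not pass. It passed without array 15 or 16 of the parental line (adjusted p = 0.0193 and 0.0196), and also with the title number as a block. In all it passed under 5 of 28 alternatives, so whether this difference is called depends on the fit.

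The other genes of secondary and tertiary granules stayed low in all lines. Line medians were 5.95 to 6.05 for the lactoferrin gene Ltf, 5.71 to 6.03 for Ngp and 6.46 to 6.66 for Camp, which encodes the precursor of an antimicrobial peptide. All were under 7.04 in 32 of 32 arrays. For comparison, 1027 odorant receptor genes, which are expressed chiefly in olfactory neurons, had a median of 4.79 and a 95th percentile of 6.57. The line medians of Ltf and Ngp lay under that percentile and those of Camp around it. No detection calls were used here, so signal above background was not shown for these genes, and absence was not shown either. The largest difference among them was 0.39 for Ngp between the natural-receptor line and the parental line (SE 0.12, adjusted p = 0.0162), under 1.5-fold, and 2 arrays of that line, numbers 15 and 16, gave its highest values of 6.53 and 6.84.

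Itgam and Lyz2 were set apart in 1 line. Itgam ranged from 7.14 to 8.65 (median 7.80, n = 8) in the single SyCyR line. In the other lines it stayed between 5.53 and 6.26, with medians of 5.93 in the parental line, 5.88 in the natural-receptor line and 6.14 in the paired SyCyR line. The line did not overlap with any other, and it rose by 1.86 (SE 0.14, adjusted p = 4.41e-12), at least 3.63-fold, against the parental line and by 1.75 (SE 0.14, adjusted p = 3.06e-11), at least 3.35-fold, against the paired SyCyR line. Against the natural-receptor line it rose by 1.96 (SE 0.14, adjusted p = 2.46e-13), at least 3.88-fold. Its partner chain Itgb2 followed another pattern, with medians of 9.64 in the natural-receptor line, 8.01 in the single SyCyR line, 7.86 in the parental line and 7.18 in the paired SyCyR line. It was 1.74 higher in the natural-receptor line than in the parental line (SE 0.30, adjusted p = 3.21e-05), where Itgam differed by -0.10 (adjusted p = 0.748). Lyz2 ranged from 6.57 to 7.48 (median 7.25, n = 8) in the single SyCyR line and from 5.40 to 6.09 over the other lines. It rose by 1.43 against the parental line (SE 0.11, adjusted p = 2.75e-12), at least 2.70-fold, by 1.52 against the natural-receptor line (adjusted p = 1.10e-13) and by 1.39 against the paired SyCyR line (adjusted p = 7.56e-12). Lyz1, the neighbouring lysozyme gene with a similar sequence, had line medians of 6.01 to 6.21, and which probes could bind both was not analysed here.

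Read against all tested probe sets, 3 of the 10 genes were called for the natural-receptor line minus the parental line (3 lower; 2.91% of all probe sets were called in either direction). For the paired SyCyR line minus the parental line limma called 0 of 10 (0.56% of all), with Lcn2 (0.86) the 1 gene past an unadjusted p of at most 0.01 and 1.5-fold. For the single SyCyR line minus the parental line, 4 were higher and 1 was lower (1.52% of all). Against the natural-receptor line, 3 were higher in the paired SyCyR line (2.62% of all) and 4 in the single SyCyR line (3.12% of all). Between the SyCyR lines 4 were higher in the single SyCyR line and 1 was lower (1.05% of all). The comparisons share lines and are not independent of each other. The median difference of the 10 genes lay between -0.09 and 0.47 over the 6 comparisons, against -0.00058 to 0.01 for all tested probe sets.

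**Figure D2:**
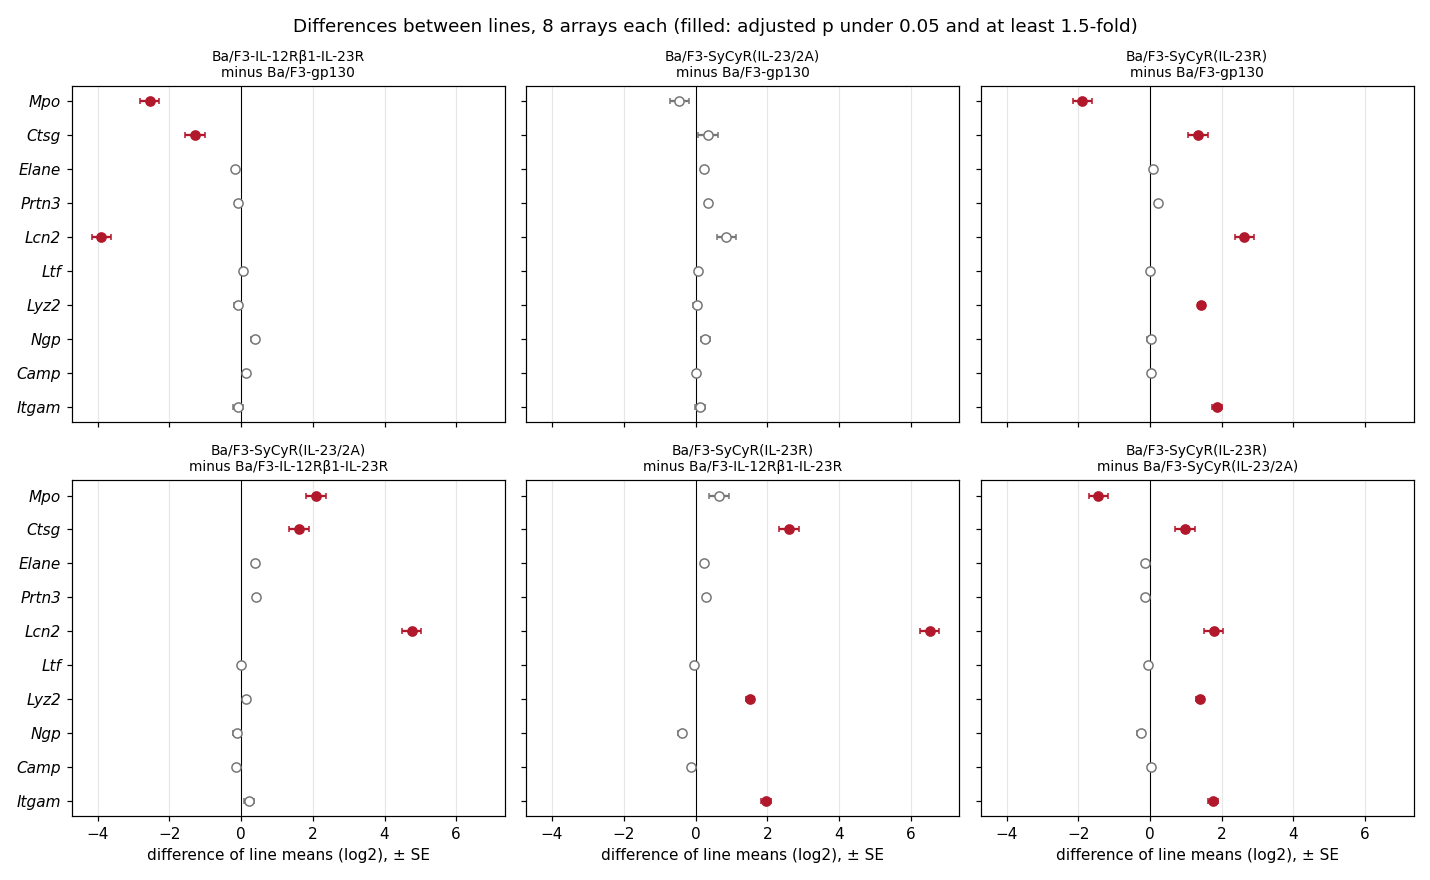
Difference of line means on the log2 scale (horizontal axis, bars ± SE from limma, 8 arrays per line) for each gene in the 6 comparisons of lines, with filled points for adjusted p under 0.05 and at least 1.5-fold. Lcn2 runs from -3.90 to 6.53, and Mpo and Ctsg point in opposite directions in the single SyCyR line minus the parental line (-1.89 and 1.33).

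Of 25 further granule and neutrophil genes 22 were measured, and 11 of these had a median at or above 7.04 in each line. Hp, which encodes haptoglobin, was 1.81 higher in the single SyCyR line than in the parental line (SE 0.09, adjusted p = 2e-16) and 0.81 higher in the paired SyCyR line (SE 0.09, adjusted p = 1.81e-07), with medians of 10.13, 9.12 and 8.30. Ncf1, a subunit of the phagocyte NADPH oxidase, was 0.70 higher in the single SyCyR line than in the parental line (SE 0.13, adjusted p = 0.000165). Against the parental line, 1 of 22 was called higher in the natural-receptor line (Itgb2, beside 2.91% of all probe sets in either direction), 1 in the paired SyCyR line (Hp, beside 0.56%) and 2 in the single SyCyR line (Hp and Ncf1, beside 1.52%), and none was called lower. Against the natural-receptor line, 3 of 22 were called in the paired SyCyR line (2.62% of all), where Hp was 0.63 and Ncf1 0.84 higher and Itgb2 was lower at -2.23. In the single SyCyR line 4 of 22 were called against it (3.12% of all), where Hp was 1.63, Ncf1 1.12 and Pglyrp1 0.68 higher and Itgb2 was lower at -1.59. Between the SyCyR lines 1 of 22 was called (1.05% of all), Hp, at 1.00 higher in the single SyCyR line. The median difference of the 22 genes against the parental line was 0.0033, 0.03 and 0.11 in the 3 receptor lines in this order. S100a8 (5.47 to 5.62), Ly6g (4.61 to 4.70) and Mmp8 (4.56 to 4.69), which mark later neutrophils, had line medians under 7.04, and S100a9 (7.18 to 7.31) and Cd177 (7.23 to 7.32), further neutrophil genes, had line medians above it.

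None of 10 measured transcription factors of granulocyte genes was called between any of the lines by limma, beside 0.56% to 3.12% of all probe sets. At such shares any 10 genes could hold no call. The median difference of the 10 factors against the parental line was 0.03 in the natural-receptor line, 0.05 in the paired SyCyR line and 0.20 in the single SyCyR line. For all tested probe sets it was 0.01 in each. The median of Spi1, which encodes PU.1, was 11.31 in the parental line, 11.16 in the natural-receptor line, 11.19 in the paired SyCyR line and 11.56 in the single SyCyR line. Cebpa had medians of 8.68, 8.35, 8.67 and 8.96 and Cebpe medians of 8.58, 8.90, 8.66 and 9.03 in the same order. Calls in the other lists are set against those of all tested probe sets. Against the parental line, 2.91% of all were called in the natural-receptor line, 0.56% in the paired SyCyR line and 1.52% in the single SyCyR line. Of 6 macrophage markers only Mrc1 was called, 1.04 higher in the natural-receptor line than in the parental line. Its medians in these lines, 6.71 and 5.69, were both under 7.04. In each line 1 of the 6 markers was at or above 7.04. Mean log2 values of the 6 ranged over the arrays from 6.43 to 6.53 in the parental line, 6.52 to 6.74 in the natural-receptor line, 6.39 to 6.56 in the paired SyCyR line and 6.49 to 6.71 in the single SyCyR line. Line medians of Cd68, the marker above 7.04, were 9.03, 8.37, 8.64 and 8.90 in this order, and those of Adgre1 (5.47 to 5.54) and Csf1r (6.52 to 6.67) were under it. The part of these markers in the results was not tested. Of 10 mast cell and basophil markers, Fcer1a was 1.40 higher in the single SyCyR line (adjusted p = 0.000344) and Gata2 was 0.68 lower in the natural-receptor line (difference -0.68, adjusted p = 1.49e-09) than in the parental line, and the part of these genes in the results was not tested. Their median difference against the parental line was -0.23 in the natural-receptor line, -0.05 in the paired SyCyR line and -0.16 in the single SyCyR line. The rise of Fcer1a was thus not that of the list as a whole. Mean log2 values of the 10 markers ranged from 6.93 to 7.14 in the parental line, 6.65 to 6.91 in the natural-receptor line, 6.83 to 7.13 in the paired SyCyR line and 6.97 to 7.13 in the single SyCyR line. Of 10 pro-B cell markers Cd79a, a chain of the B cell receptor complex, was called against the parental line, 1.01 higher in the natural-receptor line and 0.76 higher in the paired SyCyR line. None of 4 T cell markers was called. A change in all cells and a change in the share of some cells cannot be told apart in RNA of whole cultures.

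The genes next to the varying members on the chromosome had line medians that lay closer together. Tspoap1 and Lpo flank Mpo, and their line medians ranged from 7.29 to 7.55 and from 6.76 to 6.87. Beside Lcn2, 1110008P14Rik ranged from 8.86 to 9.41 and Ptges2 from 8.46 to 8.65. Next to Ctsg lie Mcpt8 (5.65 to 6.29) and Gzme (4.75 to 4.98), and next to Itgam lie Trim72 (6.78 to 6.82) and Itgax (5.87 to 5.94), another integrin α chain of the β2 family. All line medians of Lpo, Mcpt8, Gzme, Trim72 and Itgax were under 7.04. Signal above background was not shown for these neighbours, so their narrow intervals do not show steady expression. The neighbours' differences were not compared with those of the members by a test.

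No member was called between odd-numbered and even-numbered arrays. By limma, 0 of 10 were called in any line, where 0% of all probe sets were called in the parental line, 0.991% in the natural-receptor line, 0.487% in the paired SyCyR line and 0.137% in the single SyCyR line. In the mean over the 4 lines 0 of 10 were called (0.29% of all), and Ltf, at 0.09, was the 1 gene with an unadjusted p under 0.05. Within single lines 0 of 10 reached that unadjusted p. Differences of odd minus even ranged from -0.09 to 0.16 in the parental line, from -0.22 to 0.35 in the natural-receptor line, from -0.17 to 0.14 in the paired SyCyR line and from -0.33 to 0.12 in the single SyCyR line, with SEs of 0.07 to 0.41. The widest SEs were those of Mpo, Ctsg and Lcn2, so small differences were not detectable for these genes in that fit. When consecutive numbers formed a block within each line, SEs shrank to 0.08 for Mpo and Itgam and 0.10 for Lcn2, and 0 of 10 were called. In that fit Lcn2 was 0.35 higher in odd arrays of the natural-receptor line (adjusted p = 0.0299, under 1.5-fold, odd higher in 3 of 4 pairs). Itgam was lower in odd arrays of the single SyCyR line, at -0.33 (adjusted p = 0.119, even higher in 4 of 4 pairs).

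The difference of odd minus even between lines was tested as well, and 0 of 10 genes were called. The background was 0.889%, 0.32% and 0.094% for the natural-receptor line, the paired SyCyR line and the single SyCyR line against the parental line, and 0.103% and 0.487% for the SyCyR lines against the natural-receptor line. An unadjusted p under 0.05 was reached by 1 gene in the first of these 5 comparisons, Elane, and by 0 in the others. By contrast Cebpd, which encodes C/EBPδ, a factor of granule genes, was higher in odd arrays by 1.28 (SE 0.11, adjusted p = 1.22e-09) in the natural-receptor line, 1.42 (adjusted p = 2.41e-10) in the paired SyCyR line and 0.66 (adjusted p = 0.00211) in the single SyCyR line. Of the other 9 measured factors 0 were called, and of the 22 further granule and neutrophil genes Serpinb1a alone, 0.70 higher in odd arrays of the natural-receptor line.

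**Figure D3:**
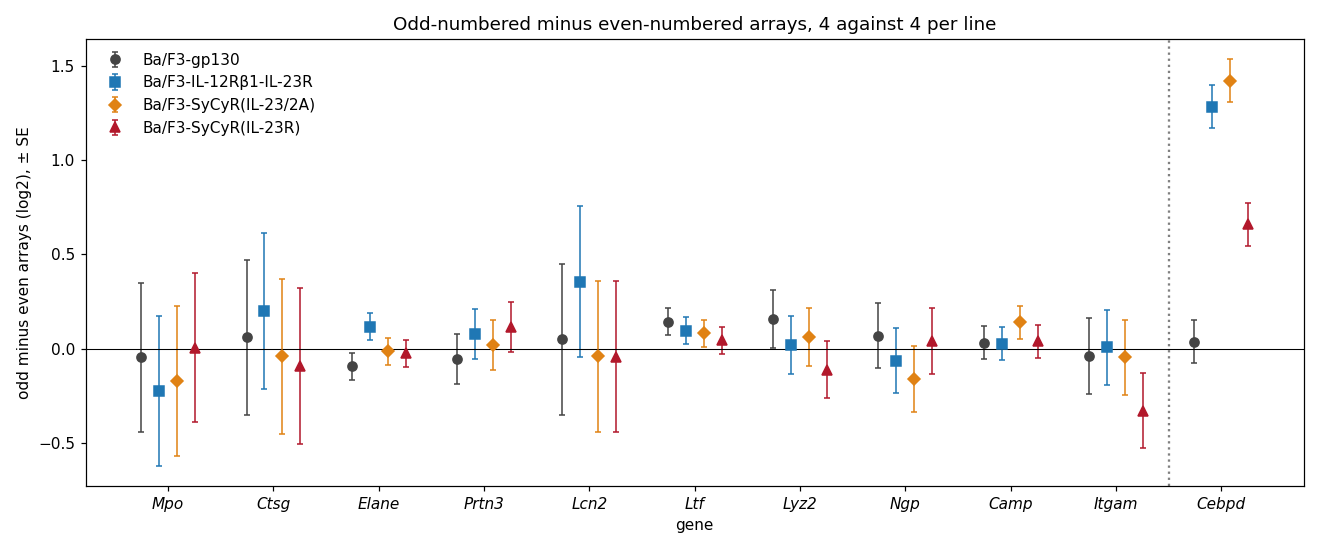
Mean of odd-numbered minus mean of even-numbered arrays on the log2 scale (vertical axis, bars ± SE from limma, 4 against 4 arrays) for each gene and line, with Cebpd on the right of the dotted line. The granule genes and Itgam lie between -0.33 and 0.35, and Cebpd reaches 1.42 in the paired SyCyR line.

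For Lcn2, Mpo and Ctsg, arrays with consecutive numbers (13 with 14, 15 with 16, 17 with 18, 19 with 20) were alike outside the natural-receptor line. There the spread within a line lay between such pairs, a feature noticed after the values had been seen. For Lcn2 the median gap within the 16 pairs was 0.07, while the 4 pair means of a line spanned 0.94 to 2.27. For Mpo the median gap was 0.11 against spans of 0.82 to 2.03, and for Ctsg 0.09 against 0.21 to 2.17. In the natural-receptor line, Lcn2 gaps had a median of 0.42 and reached 0.70, against a span of 0.94. The largest Ctsg gap in that line, 0.71, exceeded the span of 0.21. For Ltf and Lyz2 the median gaps were 0.12 and 0.21, against median spans of 0.18 and 0.39. Over all tested probe sets the median gap was 0.10 and the median span 0.19. In the parental line, Lcn2 had pair means of 10.90, 11.65, 9.38 and 10.32 in the order of the numbers. Ctsg in the single SyCyR line had pair means of 8.43, 9.54, 7.36 and 8.51. The sources used here do not say what the arrays of a pair share. If they share a culture or a day, the p-values over 8 arrays are too small. With consecutive numbers averaged to 4 values per line, 19 of the 20 called differences between lines remained, all but the Ctsg difference between the SyCyR lines.

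Arrays 17 and 18 were the lowest pair for several of these genes, which is given as a description without a test. Mpo was 1.25 lower in their median than in that of the other 6 arrays of the parental line (difference -1.25). The corresponding differences were -1.37 in the paired SyCyR line, -0.72 in the single SyCyR line and -0.54 in the natural-receptor line. Both arrays lay under the other 6 in all of these lines except the natural-receptor line, where number 19, at 6.89, lay under number 18, at 6.92. Lcn2 differed by -1.52 in the parental line, -0.36 in the paired SyCyR line and -0.92 in the single SyCyR line, with both arrays lowest in each, and by -0.10 in the natural-receptor line, where they were not. Ctsg differed by -1.54, 0.13, -0.69 and -1.16 in the parental line, the natural-receptor line, the paired SyCyR line and the single SyCyR line, and both arrays were lowest in the first and the last of these. For Itgam both were lowest in the single SyCyR line, at 7.14 and 7.23 against 7.66 to 8.65 in the other 6, a median difference of -0.85, and also in the natural-receptor line, where all values are under 7.04. Prtn3 went the other way in the single SyCyR line, where arrays 17 and 18 were the highest at 12.04 and 12.16 and arrays 15 and 16 the lowest at 11.52 and 11.22.

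Counted over the 10 genes, arrays 17 and 18 were the 2 lowest for 3 genes in the parental line (12.5% of all probe sets), 2 in the natural-receptor line (4.15%), 2 in the paired SyCyR line (3.58%) and 4 in the single SyCyR line (8.24%). They were the 2 highest for 1 gene in the parental line (9.54% of all), 0 in the natural-receptor line (4.84%), 0 in the paired SyCyR line (3.75%) and 1 in the single SyCyR line (6.96%). Mpo and Lcn2 were lowest there in at least 3 lines, as were 2.12% of all probe sets. The numbers were singled out with these arrays in view, so the shares are a description only. Among the listed factors Runx1 had both arrays lowest in 4 of 4 lines, with differences of -0.88, -0.58, -0.44 and -0.35 from the parental line to the single SyCyR line, and Cebpa in 3 of 4. Itgb2 had them lowest in 3 lines, with differences of -1.21 in the parental line and -1.68 in the natural-receptor line. The line differences did not rest on these arrays: without numbers 17 and 18 the 20 called differences were called again, and Mpo also passed between the single SyCyR line and the natural-receptor line at 0.68 (adjusted p = 0.015).

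**Figure D4:**
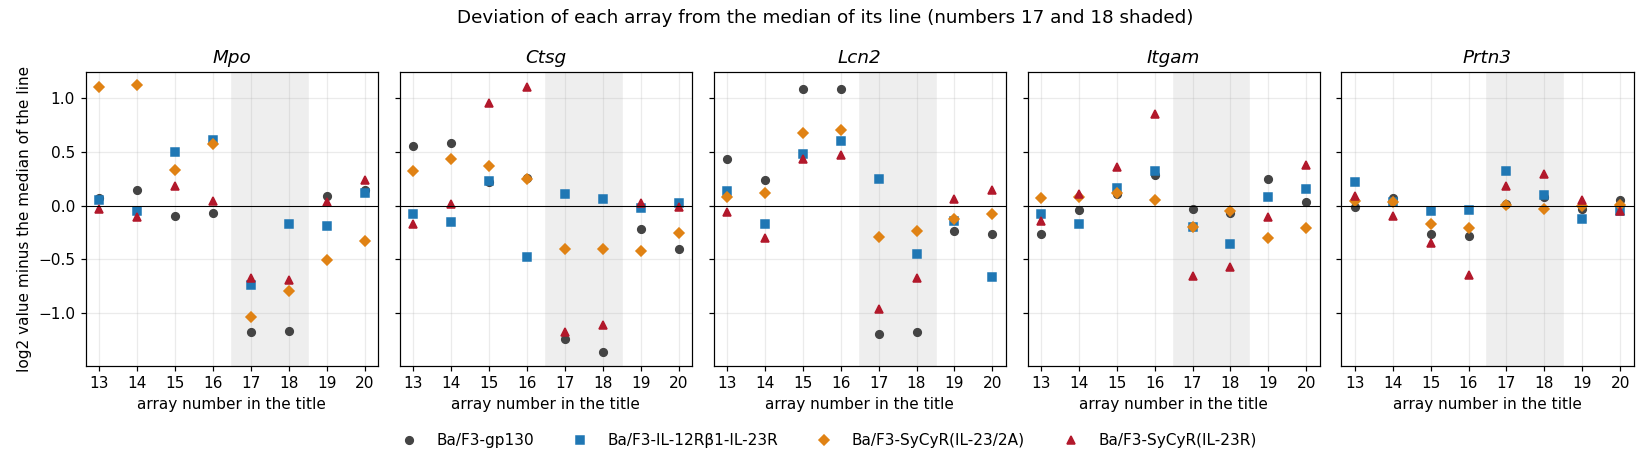
Log2 value of each array minus the median of its line (vertical axis) against the array number in its title (horizontal axis) for Mpo, Ctsg, Lcn2, Itgam and Prtn3, with 1 point per array, colours and symbols for the 4 lines and numbers 17 and 18 shaded. Consecutive numbers mostly sit close together, less so in the natural-receptor line. In the single SyCyR line Prtn3 is highest at 17 and 18, where the other 4 genes are lowest.

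The deviations of the arrays from the median of their own line were compared between genes over all 32 arrays. Arrays of a pair and of a number share what was described above, so the coefficients describe these arrays only. The highest coefficient was that of Ctsg and Lcn2 (Pearson r = 0.746, Spearman rho = 0.688), followed by Mpo and Ctsg (0.646 and 0.589) and Mpo and Lcn2 (0.581 and 0.588). Without numbers 17 and 18, Pearson r over the other 24 arrays was 0.434, 0.263 and 0.183 in this order. By line, the coefficient of Mpo and Ctsg was 0.868 in the parental line, 0.939 in the paired SyCyR line and 0.835 in the single SyCyR line, and -0.403 in the natural-receptor line, where Ctsg was under 7.04. Prtn3 and Itgam ran in opposite directions, at r = -0.784 over 32 arrays, -0.748 without numbers 17 and 18 and -0.925 in the single SyCyR line, the line with Itgam above 7.04. Prtn3 and Elane, which are neighbours on the chromosome, had r = 0.163.

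Over all genes with 1 symbol, those most like Mpo in these deviations were Gab2 (r = 0.843), Glb1 (0.825) and Ptpn22 (0.825), which encode an adaptor of cytokine receptors, a lysosomal galactosidase and a tyrosine phosphatase. Most like Ctsg were H13 (0.862), P2rx7 (0.855) and Trib3 (0.849), and most like Lcn2 were Babam2 (0.899), Itgb7 (0.887) and Wars (0.885). These are the 3 highest of each gene over 32 arrays. Without numbers 17 and 18 the coefficients were 0.522 to 0.641 for Mpo, 0.579 to 0.756 for Ctsg and 0.804 to 0.839 for Lcn2. By line, P2rx7, which encodes an ATP-gated ion channel, had medians of 8.16 in the parental line, 7.26 in the natural-receptor line, 8.07 in the paired SyCyR line and 9.73 in the single SyCyR line, so its lowest and highest lines were those of Ctsg. Itgb7 and Ptpn22 did not follow their member in this way. Itgb7 was lowest in the single SyCyR line (7.52), where Lcn2 was highest. Ptpn22 was highest in the natural-receptor line (8.92), where Mpo was lowest. The medians of Babam2 lay between 11.61 and 11.86 and those of Gab2 between 10.05 and 10.31, a narrower interval than for Lcn2 and Mpo.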

How the data were processed

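The authors hybridised RNA of the Ba/F3 lines to Affymetrix Mouse Gene ST 1.0 arrays and deposited log2 values per gene-level probe set, made with RMA in Affymetrix Expression Console (version not given in the sources used here). RMA corrects background and normalizes arrays to each other, which sets levels relative to the other arrays, and values of different probe sets are not comparable. Lines came from the titles' letters. Stimulation of single arrays was not used, since the labels do not give it. Of 35556 probe sets, 23410 with a gene symbol entered the fit, and all 32 value columns were mapped to a sample. The 4 lines were compared in 1 limma fit over all arrays (limma 3.58.1, R 4.3.3), with Benjamini-Hochberg adjustment over all tested probe sets and a limit of 1.5-fold, and odd against even numbers in a fit of line by parity. Tables and plots were made in Python 3.11.15 (numpy 2.4.6, pandas 2.3.3, matplotlib 3.10.9). The fits were tested on simulated data. Probe sets were named from the platform annotation, and positions and promoters are those of RefSeq (GRCm38.p6).

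The genes, the lists and the tests were chosen with earlier results of these data known. Named were the members, the 3 genes most like each member with a range of at least 2 within a line, list genes and chromosomal neighbours. Same-numbered arrays deviated together between the 3 receptor lines (lowest correlations 0.342, 0.252 and 0.189), and the numbers were taken to pair them. Against the parental line these lowest values were -0.04, -0.0017 and -0.02, and by them the numbers were not taken to pair it. The median same-number correlations with the parental line were 0.21, 0.27 and 0.25, however, against -0.04, -0.03 and -0.05 for other numbers. Same-numbered arrays thus deviated together there in part as well, and fits with the title number as a block also bear on comparisons with the parental line. Alternatives were other sets of probe sets, normalizations, arrays, blocks and thresholds. Whether a probe set was above background could not be read from the values, and the number of arrays limits the precision.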

Additional observations from a re-analysis of the deposited data

Results flagged for a closer look

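Among 40 groups of 8 arrays, 1 held an array far from the others: Lyz2 in the single SyCyR line, where array 17 was lowest at 6.57 and the other arrays lay between 7.12 and 7.48. Its gap to the nearest array was 0.605 of the whole range, above Dixon's 95% critical value for 8 values. Chance alone flags about 1 in 20 groups.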

How the results depend on the processing

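Of 110 differences of the 10 genes (between lines and of odd minus even), 20 were called, 17 of these kept the call under each of the 27 or 28 alternatives run for them, which include leaving out each array of the lines compared, 3 lost it under some setting, and 0 of the 20 turned sign. The numbers of genes called changed as follows. For the paired SyCyR line minus the parental line, 1 (Lcn2) in place of 0 was called among probe sets brighter than the median probe set, with the replicate block (adjusted p = 0.00069) and at an unadjusted p of at most 0.01, and 0 to 1 when arrays were left out. With dim probe sets removed, the fit held 4 of the 10 genes and neither Lyz2 nor Itgam, so 3, 2 and 3 were called for the single SyCyR line minus the parental line, minus the natural-receptor line and minus the paired SyCyR line. Only odd numbers gave 3 for the last of these, and leaving out arrays 4 to 5. Calls lost with only odd numbers, which are fewer arrays, were Ctsg against the parental line (1.25, adjusted p = 0.0617) and Mpo (-1.35, adjusted p = 0.0836) and Ctsg (0.96, adjusted p = 0.301) between the SyCyR lines. Only even numbers also lost the latter (1.01, adjusted p = 0.216). The replicate block also called Mpo between the single SyCyR line and the natural-receptor line (0.65, adjusted p = 0.00376), as did a fit of only these lines (adjusted p = 0.00948), and the block changed no call other than these of Lcn2 and Mpo. With all probe sets, with and without a symbol, 637 in place of 131 were called for the paired SyCyR line minus the parental line, and 1582 in place of 355, 1160 in place of 730 and 1038 in place of 681 for the single SyCyR line minus the parental line, the single SyCyR line minus the natural-receptor line and the natural-receptor line minus the parental line, and 357 in place of 232 for odd minus even in the natural-receptor line. Only even numbers gave 82 in place of 131. The cause was not tested. Averaging consecutive numbers and blocking on them were chosen after seeing the data. Other probe sets of a gene were not run, since each gene had 1 of its symbol alone, and the 3 naming Itgam with another gene were not used. Signal under 7.04 limits what can be said of Ltf, Ngp and Camp.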
